A study of Mus musculus with 28 samples.

Results

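The organic anion transporters of the Slco family were followed here through 7 of their genes, Slco1a1, Slco1a4, Slco1a6, Slco2a1, Slco2b1, Slco3a1 and Slco4c1, in polyadenylated RNA from mouse kidney. They were taken from the count table by matching its Ensembl gene IDs to these symbols. All 7 were in the table of 56748 genes, and all 7 were among the 17573 genes that passed the filter on low counts. Slco proteins, also called Oatps, sit in the plasma membrane and carry large amphipathic anions such as bile acids, conjugated steroids, thyroid hormones, prostaglandins and many drugs, mostly by exchange and without sodium. In the rodent kidney several of them belong to the proximal tubule, where organic anions are secreted into and reclaimed from the filtrate, and Oatp1a1 of the mouse and rat kidney is a textbook case of a transporter kept high by androgens. Slco2a1 stands apart as the prostaglandin transporter, which takes prostaglandins up for intracellular breakdown.

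The mice differed in aquaporin-3 (Aqp3), a water and glycerol channel of the collecting duct. They carried an acetylation mimetic (Q), a deacetylation mimetic (R) or the wild type form (WT), and each form was sampled in males and females without any treatment. There were 5 libraries each of male Q, male R, male WT, female Q and female WT kidneys, and 3 of female R kidneys. All groups shared a 12 h light and 12 h dark cycle, free access to pelleted food and water, and collection between ZT 2 and ZT 5, that is 2 to 5 h after lights on. The labels give no ages and do not say how each library was drawn from animals, so the p-values measure the spread between libraries, part of which may be technical. The changed codon cannot be read from gene counts, and the genotypes were not checked here.

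The 28 libraries held 14825417 to 21403804 counted fragments. Male Q replicate 4 and female Q replicate 5 lay apart on the second principal component of expression (11.3% of the variance), and mitochondrial genes made up 7.74% and 3.94% of their counts, against 9.56% to 12.1% in the other 26. The library labelled female WT replicate 2 held almost no Xist, at 0.515 CPM (counts scaled to library size), where the 12 further female libraries held 214 to 435 CPM. Y-linked transcripts were as scarce, with 0.468 CPM summed over 4 Y-linked genes, against 121 to 164 CPM in males. The fold changes of Slco genes and the counts of called genes that rest on it are given with and without it.

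Levels are given as CPM after TMM scaling of library sizes. Each comparison was fitted with edgeR's quasi-likelihood test on all 28 libraries, p-values were adjusted by the Benjamini-Hochberg method over the 17573 genes, and a gene was called at an adjusted p under 0.05. Log2 fold changes are male over female, or the first genotype over the second.

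Sex separated the family sharply, and did so in each Aqp3 form. In Q, R and WT kidneys alike, Slco1a1, Slco3a1 and Slco4c1 were higher in males, Slco2a1 was lower in males, and Slco1a4, Slco1a6 and Slco2b1 were not called. That made 4 of 7 members called in Q kidneys, where 23.1% of all tested genes were called, 4 of 7 in R kidneys, against 14.1%, and 4 of 7 in WT kidneys, against 16.5%. By direction, 3 of 7 members were higher in males, against 11.9% of tested genes in Q, 7.07% in R and 8.22% in WT kidneys. The 1 member that was lower stood against 11.2% in Q, 7.01% in R and 8.31% in WT kidneys. At an unadjusted p under 0.05, 4, 5 and 5 of 7 members passed in Q, R and WT kidneys, against 34%, 27.1% and 28.6% of tested genes, and 4 in WT kidneys without female WT replicate 2. Male and female ranges did not overlap for 4 members in Q, 4 in R and 5 in WT kidneys, against 13.4%, 23.9% and 17.1% of tested genes. The same 4 genes remained called in WT kidneys without female WT replicate 2, at log2 fold changes of 8.10 for Slco1a1, 1.85 for Slco3a1, 1.93 for Slco4c1 and -0.71 for Slco2a1. The uncalled genes then gave 0.05 (Slco1a4), -0.15 (Slco1a6) and -0.04 (Slco2b1).

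**Figure D1:**
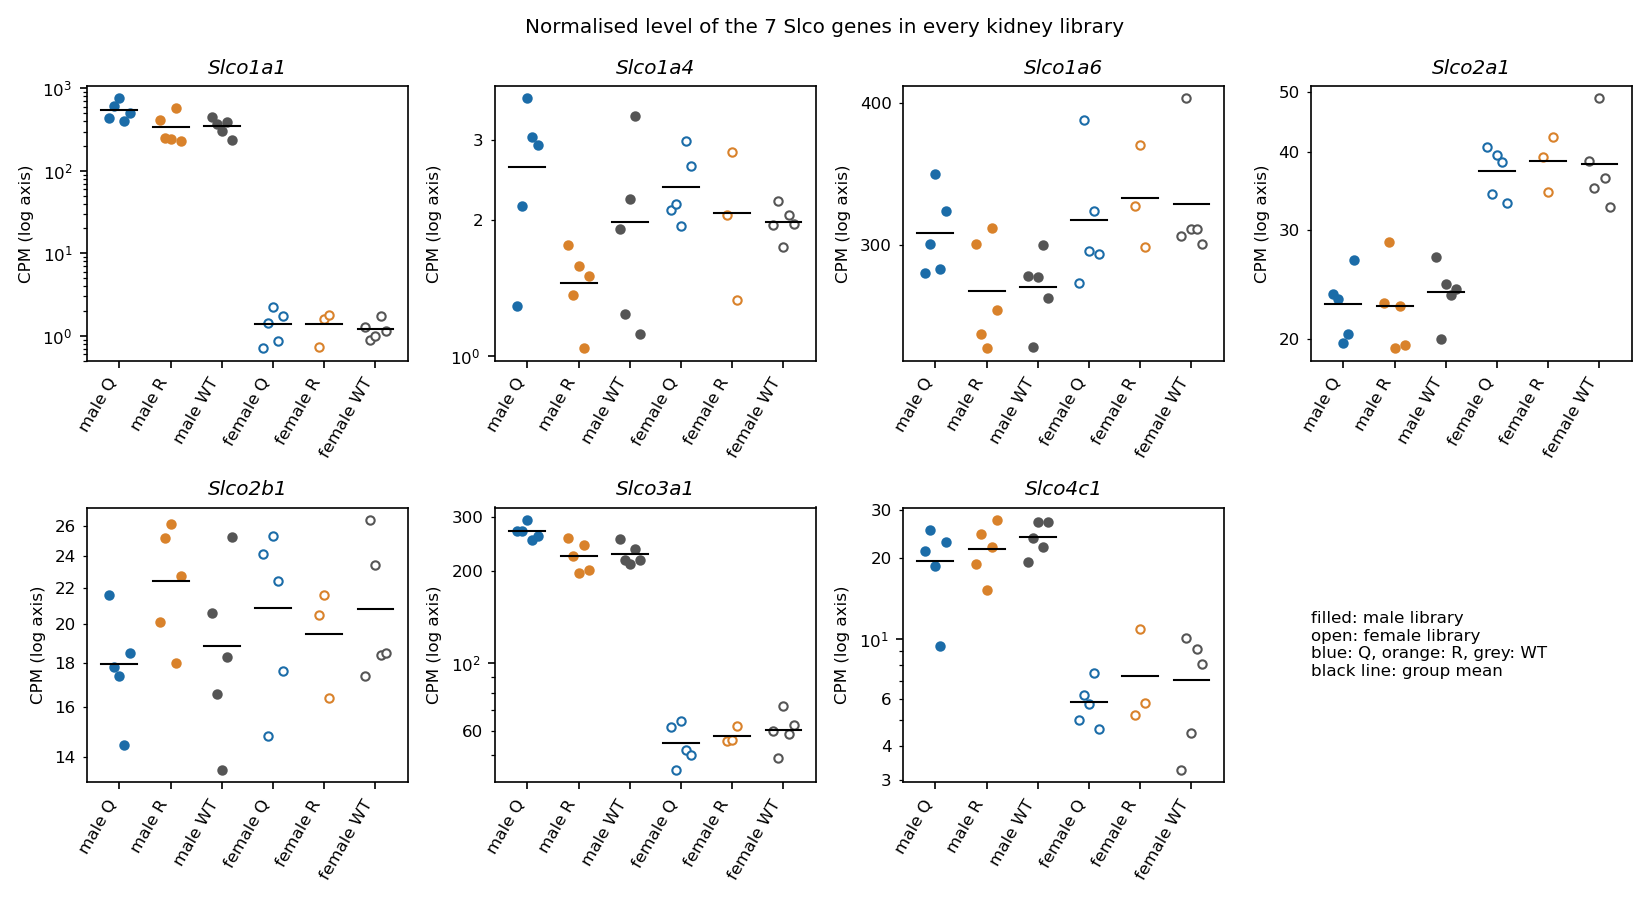
Normalised level of each of the 7 Slco genes, in CPM on a log axis, in all 28 kidney libraries by group, male groups left of female groups. Points are libraries (filled male, open female) and black lines are group means; male and female libraries separate without overlap for Slco1a1, Slco2a1 and Slco3a1, and Slco1a1 lies between 232 and 754 CPM in every male library and between 0.701 and 2.22 CPM in every female library.

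Slco1a1, Slco1a4 and Slco1a6 are close paralogs that sit in the same stretch of chromosome 6. In the RefSeq order of GRCm38.p6 the genes run Slco1c1, Slco1b2, Gm5724, Slco1a4, Gm30784, Gm30843, Slco1a1, Gm6614, Slco1a6, Gm18159 and Slco1a5. Their longest open reading frames are all 2013 bases long in the GENCODE M21 transcripts, and Slco1a1 shares 86.6% of aligned bases with Slco1a4 and 84.2% with Slco1a6. Of the 50-base stretches in their transcripts, 1.64% of those of Slco1a1, 1.61% of those of Slco1a4 and 6.59% of those of Slco1a6 also occur in a transcript of another gene, so a small part of each gene's reads cannot be assigned with certainty. The sequences from 250 bases before to 50 bases after the start of transcription are shown for these 3 neighbours because Slco1a1 RNA differed by sex while that of Slco1a4 and Slco1a6 was not called, and for Slco4c1 and Slco2a1 because these were called in opposite directions. They are from RefSeq on GRCm38.p6 and read 5' to 3' on the gene's strand: Slco1a1 chr6:141946913-141947212 (minus strand), Slco1a4 chr6:141856171-141856470 (minus), Slco1a6 chr6:142186100-142186399 (minus), Slco4c1 chr1:96872122-96872421 (minus) and Slco2a1 chr9:103008237-103008536 (plus). Capitals mark matches, on either strand, to any of 5 short motifs described after the sequences.
Slco1a1: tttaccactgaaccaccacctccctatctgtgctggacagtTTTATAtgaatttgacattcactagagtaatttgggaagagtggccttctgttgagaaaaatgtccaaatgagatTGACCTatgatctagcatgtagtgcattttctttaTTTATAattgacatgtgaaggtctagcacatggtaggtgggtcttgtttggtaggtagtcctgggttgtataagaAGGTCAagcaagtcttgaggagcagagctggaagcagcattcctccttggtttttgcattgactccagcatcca
Slco1a4: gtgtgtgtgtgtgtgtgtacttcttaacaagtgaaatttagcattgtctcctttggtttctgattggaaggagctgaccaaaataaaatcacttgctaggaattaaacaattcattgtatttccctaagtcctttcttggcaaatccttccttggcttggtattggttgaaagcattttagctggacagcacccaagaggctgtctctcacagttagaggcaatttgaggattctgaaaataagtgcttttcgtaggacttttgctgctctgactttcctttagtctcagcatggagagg
Slco1a6: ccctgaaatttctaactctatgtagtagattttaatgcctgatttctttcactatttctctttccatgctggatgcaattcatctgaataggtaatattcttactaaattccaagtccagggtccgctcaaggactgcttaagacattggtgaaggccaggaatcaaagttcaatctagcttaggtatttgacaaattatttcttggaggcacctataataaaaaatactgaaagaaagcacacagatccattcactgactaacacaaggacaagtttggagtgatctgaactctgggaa
Slco4c1: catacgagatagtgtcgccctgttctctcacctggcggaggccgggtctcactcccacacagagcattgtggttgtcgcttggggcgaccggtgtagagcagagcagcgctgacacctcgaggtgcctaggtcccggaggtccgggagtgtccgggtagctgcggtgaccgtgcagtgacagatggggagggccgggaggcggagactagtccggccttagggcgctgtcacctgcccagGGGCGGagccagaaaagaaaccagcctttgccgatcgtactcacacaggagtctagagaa
Slco2a1: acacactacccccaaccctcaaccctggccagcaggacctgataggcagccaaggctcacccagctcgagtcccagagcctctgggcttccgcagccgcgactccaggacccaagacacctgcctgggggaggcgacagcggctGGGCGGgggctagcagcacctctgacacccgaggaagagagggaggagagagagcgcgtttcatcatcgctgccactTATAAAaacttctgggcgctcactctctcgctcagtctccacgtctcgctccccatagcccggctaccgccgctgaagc

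The motifs searched were the TATA box TATAAA, the STAT5 site TTCNNNGAA, the HNF4 hexamer AGGTCA, the HNF1 hexamer GTTAAT and the GC box GGGCGG. Positions count from the start site, and give the first base of a match in the printed strand. The Slco1a1 window held AGGTCA at -24 and its reverse complement TGACCT at -134, a motif that 16.3% of the 32851 RefSeq windows of the same length hold at least once. It also held TATAAA in reverse, as TTTATA, at -209 and -99 (13.6% of windows). The Slco1a4 and Slco1a6 windows held none of the 5. The Slco4c1 window held a GC box at -10 (35.7% of windows). The Slco2a1 window held a TATA box at -29 and a GC box at -106. The GC content was 42% for Slco1a1, 40.7% for Slco1a4 and 37.3% for Slco1a6, and 63% for Slco4c1 and 64% for Slco2a1, against a median of 52.7% over all windows. These are matches of letters, and an absent match says only that the letters are not in the window. Of the 7 members, 6 have a window in the table, Slco2b1 with several starts, and Slco3a1 is the exception. The Slco2b1 windows are not printed. Its window 2 held a STAT5 site at 14 and its window 3 held another at -133 (8.3% of all windows). Slco2b1 was not called between the sexes.

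Slco1a1, whose product takes up conjugated steroids and bile acids at the brush border, had the widest gap between the sexes of the 7. Its level was 436, 607, 754, 398 and 506 CPM in male Q kidneys, against 0.701, 1.45, 2.22, 0.861 and 1.73 CPM in female Q kidneys. It was 412, 252, 244, 574 and 232 CPM in male R kidneys, against 0.733, 1.59 and 1.80 CPM in female R kidneys. It was 455, 371, 303, 393 and 239 CPM in male WT kidneys, against 1.26, 0.889, 0.996, 1.76 and 1.15 CPM in female WT kidneys. The lowest male library was thus far above the highest female one in every genotype. Female libraries held 15 to 47 fragments of the gene and male libraries 4063 to 14208, so the female values are low but not at 0. The fitted fold change was 388-fold in Q, 249-fold in R and 293-fold in WT kidneys, or 8.60 (SE 0.357), 7.96 (SE 0.444) and 8.19 (SE 0.356) on the log2 scale. Adjusted p-values were 2.22e-16, 2.92e-13 and 6.73e-16, and in WT kidneys the gene stood at rank 16 of all tested genes by p. Within males it was also the most variable of the abundant members, with coefficients of variation of 26.6% in Q, 43.4% in R and 23.7% in WT kidneys.

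Slco1a6, a transporter found mainly in the mouse kidney, was abundant in both sexes. It had 284, 301, 346, 286 and 322 CPM in male Q kidneys, against 278, 387, 297, 322 and 295 CPM in female Q kidneys. It had 301, 251, 243.5, 310 and 263 CPM in male R kidneys, against 325, 368 and 299 CPM in female R kidneys. It had 282, 244, 281, 299.9 and 269.9 CPM in male WT kidneys, against 306, 404, 309.9, 310 and 301 CPM in female WT kidneys. Male and female ranges overlapped in Q and R kidneys and just missed each other in WT kidneys. The log2 fold change was -0.04 in Q (SE 0.103, adjusted p = 0.847), -0.27 in R (SE 0.118, adjusted p = 0.128) and -0.24 in WT kidneys (SE 0.103, adjusted p = 0.107). In WT kidneys it was -0.15 (adjusted p = 0.406) without female WT replicate 2, whose 404 CPM was the highest value of all libraries.

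Slco1a4, best known from liver and the blood-brain barrier, was close to the floor of the measurement, with 18 to 70 fragments per library. Group means lay between 1.45 CPM and 2.63 CPM. The sexes overlapped in every genotype. Log2 fold changes of male over female were 0.15 in Q (95% interval -0.38 to 0.69, adjusted p = 0.731), -0.50 in R (-1.14 to 0.15, adjusted p = 0.33) and -0.01 in WT kidneys (-0.56 to 0.55, adjusted p = 0.992). These intervals leave room for differences of some size in either direction in this thinly counted gene.

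Slco3a1, a broadly expressed carrier of prostaglandins and thyroid hormone, was the other abundant gene with a male excess. It had 271, 269, 293, 253 and 261 CPM in male Q kidneys, against 61.7, 44.7, 64.7, 51.8 and 50.1 CPM in female Q kidneys. It had 255, 224, 196, 243.5 and 201 CPM in male R kidneys, against 55.4, 55.9 and 62.05 CPM in female R kidneys. It had 255, 216, 210.2, 236 and 216 CPM in male WT kidneys, against 59.8, 48.8, 72.3, 58.7 and 62.6 CPM in female WT kidneys. No male library came near the female range, and the libraries within a group were tight. The fitted difference was 4.93-fold in Q (log2 2.30, SE 0.108, adjusted p = 1.51e-16), 3.87-fold in R (1.95, SE 0.130, adjusted p = 1.19e-12) and 3.75-fold in WT kidneys (1.91, SE 0.107, adjusted p = 1.12e-14). In WT kidneys it stood at rank 25 of all tested genes by p.

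Slco4c1, which in rat and human kidney carries digoxin and thyroid hormone across the basolateral membrane of the proximal tubule, was a less abundant gene with the same direction. It had 21.1, 25.3, 18.6, 9.39 and 22.9 CPM in male Q kidneys, against 5.00, 6.23, 5.76, 7.50 and 4.64 CPM in female Q kidneys. It had 18.9, 24.6, 15.2, 21.9 and 27.6 CPM in male R kidneys, against 5.23, 10.9 and 5.79 CPM in female R kidneys. It had 19.2, 23.7, 27.2, 21.9 and 27.1 CPM in male WT kidneys, against 3.27, 10.1, 4.48, 9.19 and 8.08 CPM in female WT kidneys. Within each genotype the sexes did not overlap, although the low male value, from male Q replicate 4, fell inside the female R and female WT ranges. The male excess was 3.34-fold in Q (log2 1.74, SE 0.266, adjusted p = 1.43e-05), 2.99-fold in R (1.58, SE 0.315, adjusted p = 0.000737) and 3.37-fold in WT kidneys (1.75, SE 0.263, adjusted p = 1.48e-05).

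Slco2a1, the prostaglandin transporter, was the only called member with more RNA in females. It had 23.6, 23.2, 19.7, 20.3 and 26.8 CPM in male Q kidneys, against 40.7, 34.3, 39.5, 38.6 and 33.2 CPM in female Q kidneys. It had 22.9, 28.7, 19.3, 22.6 and 19.6 CPM in male R kidneys, against 39.3, 34.5 and 42.3 CPM in female R kidneys. It had 27.1, 19.998, 24.5, 23.5 and 24.03 CPM in male WT kidneys, against 38.7, 34.97, 48.8, 36.4 and 32.6 CPM in female WT kidneys. The highest of the 15 male libraries was below the lowest of the 13 female libraries. The log2 fold change was -0.71 in Q (SE 0.118, adjusted p = 2.98e-05), -0.78 in R (SE 0.133, adjusted p = 8.92e-05) and -0.68 in WT kidneys (SE 0.118, adjusted p = 7.53e-05), so males had 0.610, 0.584 and 0.623 times the female level.

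Slco2a1 is expressed by endothelium in many organs. The median log2 fold change of 8 endothelial markers was -0.23 in Q, -0.09 in R and -0.30 in WT kidneys. Lower values were not particular to endothelium. Podocyte markers (2 genes) had medians of -0.57, -0.54 and -0.47, and thick ascending limb markers (2 genes) -0.50, -0.57 and -0.34. Hepatocyte and erythroid medians were positive in each genotype, and the adipocyte median was positive in R kidneys. Of 8 endothelial markers tested, 2 were lower in males in Q, 0 in R and 4 in WT kidneys, and none was higher. The 4 in WT kidneys were Tek (-0.49), Plvap (-0.38), Pecam1 (-0.37) and Emcn (-0.34), and 3 were lower without female WT replicate 2. The sum of the 8 markers was 509 to 555 CPM in male Q against 579.99 to 672 CPM in female Q kidneys, 444 to 568 against 534 to 558 CPM in male and female R kidneys, and 497 to 547 against 566 to 680.2 CPM in male and female WT kidneys. Expressed as a percentage of that sum, Slco2a1 was 3.66% to 5.17% in male Q against 5.11% to 6.88% in female Q kidneys, 3.40% to 5.25% against 6.22% to 7.58% in male and female R kidneys, and 3.72% to 5.45% against 4.79% to 8.62% in male and female WT kidneys. These percentages overlapped between the sexes in Q and WT kidneys and did not in R kidneys. In R kidneys, with 3 female libraries, none of the markers was called and their sums overlapped between the sexes. The part of endothelial content in the Slco2a1 difference was not tested. In whole kidney RNA, fewer cells of a type and less RNA per cell cannot be told apart.

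Slco2b1, a widely expressed carrier of sulfated steroids, was not called in any comparison. Group means were 17.9 CPM in male Q, 22.4 CPM in male R, 18.8 CPM in male WT, 20.84 CPM in female Q, 19.5 CPM in female R and 20.82 CPM in female WT kidneys, and the ranges overlapped throughout. Log2 fold changes of male over female were -0.22 in Q (95% interval -0.54 to 0.11, adjusted p = 0.359), 0.21 in R (-0.17 to 0.58, adjusted p = 0.518) and -0.15 in WT kidneys (-0.47 to 0.18, adjusted p = 0.599). In GENCODE M21, 9.21% of its exon bases overlap genes on the opposite strand, Gm15635 and Gm34280, and the counting did not use strand.

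**Figure D2:**
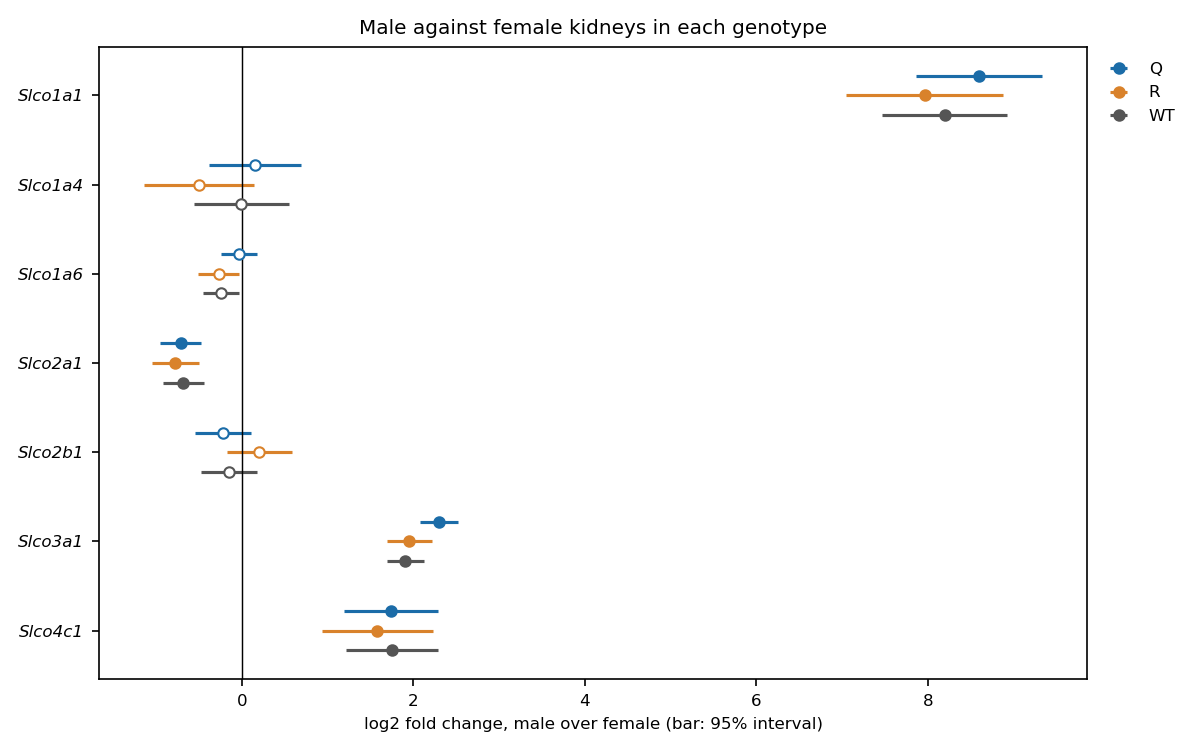
Log2 fold change of male over female kidneys for each Slco gene in Q, R and WT mice, with 95% intervals from the edgeR fit and filled points for an adjusted p under 0.05. Slco1a1 lies near 8 in all 3 genotypes, Slco3a1 and Slco4c1 between 1.58 and 2.30, Slco2a1 between -0.78 and -0.68, and the 3 genes that were not called between -0.50 and 0.21.

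The 4 called genes gave male and female kidneys a different transporter profile. Per kb of exon, Slco1a1 and Slco1a6 led in males, at 102 and 80.8 CPM per kb in Q, 65.0 and 71.9 in R, and 66.7 and 72.3 in WT kidneys. In females Slco1a6 stood alone, at 82.9 CPM per kb in Q, 86.7 in R and 85.6 in WT kidneys. Slco3a1 was next, at 26.8 CPM per kb in male WT against 7.13 in female WT kidneys. Of the summed per-length level of the 7 genes in WT kidneys, Slco1a1 made up 37.9% in males against 0.227% in females, and Slco1a6 41.1% in males against 84.7% in females. Slco1a1 was at rank 1 in male Q and rank 2 in male R and male WT kidneys, and at the bottom, rank 7, in all female groups. Without Slco1a1, the summed level of the other 6 genes was 571 ± 34.6 CPM in male WT against 455 ± 42.6 CPM in female WT kidneys (SD, n = 5 each).

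**Figure D3:**
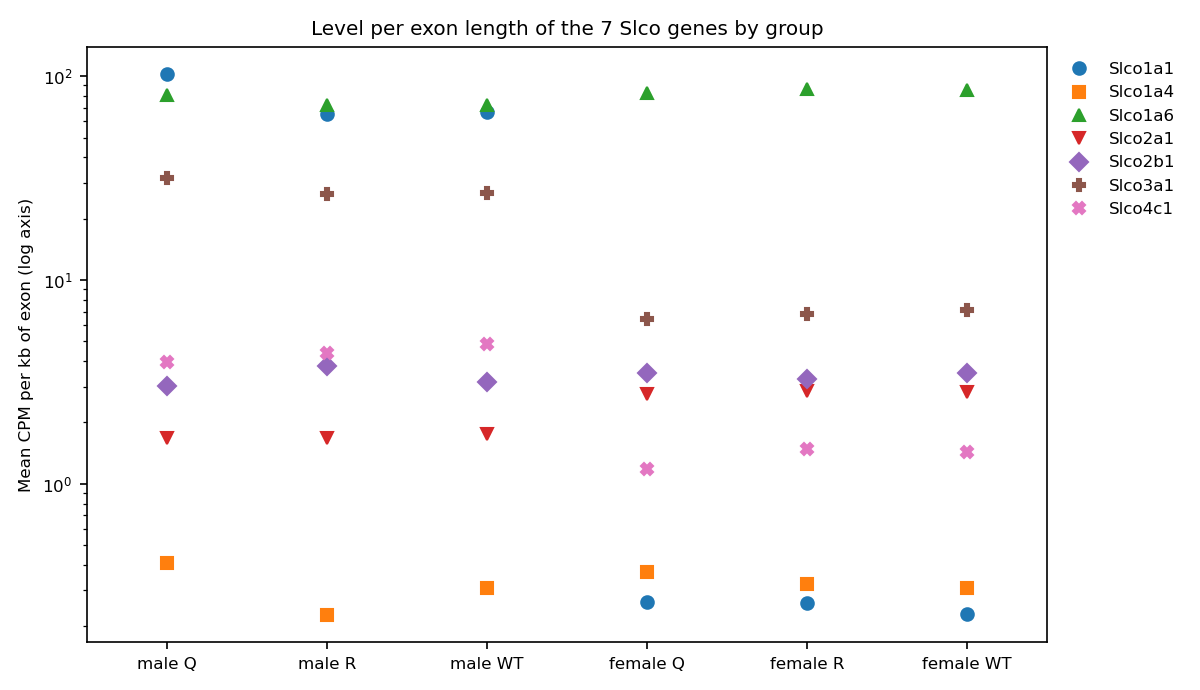
Mean level of each Slco gene per kb of exon, on a log axis, in the 6 groups, male groups left of female groups. Slco1a6 stays between 71.9 and 86.7 CPM per kb in all groups while Slco1a1 lies at 65.0 to 102 in male and 0.230 to 0.264 in female groups.

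The comparison of Aqp3 forms asked whether mimicking acetylation or deacetylation of the channel altered kidney RNA. No Slco gene was called in any of the 9 genotype contrasts (Q against WT, R against WT and Q against R, in males, females and both sexes), and 0% of the 17573 tested genes were called in each of them by edgeR. The largest genotype differences within the family were in males. Slco1a1 averaged 540 ± 144 CPM in male Q, 343 ± 149 CPM in male R and 352 ± 83.4 CPM in male WT kidneys (SD, n = 5 each). The log2 fold change was 0.62 for Q over WT (SE 0.242, unadjusted p = 0.0167 and adjusted p = 0.917 by edgeR) and 0.66 for Q over R (SE 0.242, unadjusted p = 0.0116, adjusted p = 1). Ranges overlapped, from 398 to 754 CPM in Q, 232 to 574 CPM in R and 239 to 455 CPM in WT males.

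Slco3a1 showed a smaller difference of the same sign, with 269 ± 15.2 CPM in male Q, 224 ± 25.8 CPM in male R and 227 ± 18.4 CPM in male WT kidneys (SD, n = 5 each). Its log2 fold change was 0.25 for Q over WT (SE 0.103, unadjusted p = 0.0221, adjusted p = 0.917 by edgeR) and 0.27 for Q over R (SE 0.103, unadjusted p = 0.0147, adjusted p = 1). In females the values were -0.15 for Q over WT (-0.21 without female WT replicate 2) and -0.08 for Q over R. The interaction of sex with Q against WT was 0.39 for Slco3a1 (SE 0.147, unadjusted p = 0.0116, adjusted p = 0.999) and 0.46 (unadjusted p = 0.00346) without female WT replicate 2. No member was called in the 3 interactions, where 0% of tested genes were called.

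Slco1a4 had 1.29, 2.15, 3.72, 3.05 and 2.93 CPM in male Q kidneys, against 1.76, 1.37, 1.58, 1.04 and 1.51 CPM in male R kidneys. Its difference of 0.86 on the log2 scale had the smallest unadjusted p of the family for Q over R (SE 0.274, unadjusted p = 0.00388, adjusted p = 1 by edgeR), and the groups overlapped through the lowest Q library. At an unadjusted p under 0.05, 2 of 7 members passed for Q over WT in males, against 5.1% of tested genes, 0 of 7 for R over WT in males, against 2.13%, and 3 of 7 for Q over R in males, against 4.1%. These contrasts share libraries, so their counts are not independent. In females 0 of 7 passed for Q over WT, R over WT and Q over R, against 2.94%, 1.92% and 3.03% of tested genes. Over both sexes 0 passed for Q over WT (4.72% of tested genes), 0 for R over WT (1.34%) and 1 for Q over R (3.93%), which was Slco1a4 at 0.53 (unadjusted p = 0.0157, adjusted p = 0.986 by edgeR). Of the interactions, 1, 0 and 1 passed for Q against WT, R against WT and Q against R (3.11%, 2.82% and 3.18% of tested genes), each time Slco3a1. The counts that include female WT libraries were the same without female WT replicate 2.

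Of the other members in males, Slco1a6 gave 0.16 for Q over WT (95% interval -0.05 to 0.37) and Slco2a1 gave -0.07 (-0.31 to 0.17). Slco2b1 gave -0.07 (-0.40 to 0.26). Slco4c1 gave -0.29 (-0.80 to 0.22), and -0.12 without male Q replicate 4, the library with its lowest male value. For R over WT in males the 7 values ran from -0.44 for Slco1a4 to 0.25 for Slco2b1. In females they ran from -0.28 to 0.25 for Q over WT and from -0.10 to 0.20 for R over WT, and the widest interval there, for Slco1a1, was -0.76 to 1.15. Without female WT replicate 2 the values ran from -0.21 to 0.30 for Q over WT and from -0.13 to 0.21 for R over WT, and Slco1a6 for Q over WT was 0.05, against -0.05 with it.

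**Figure D4:**
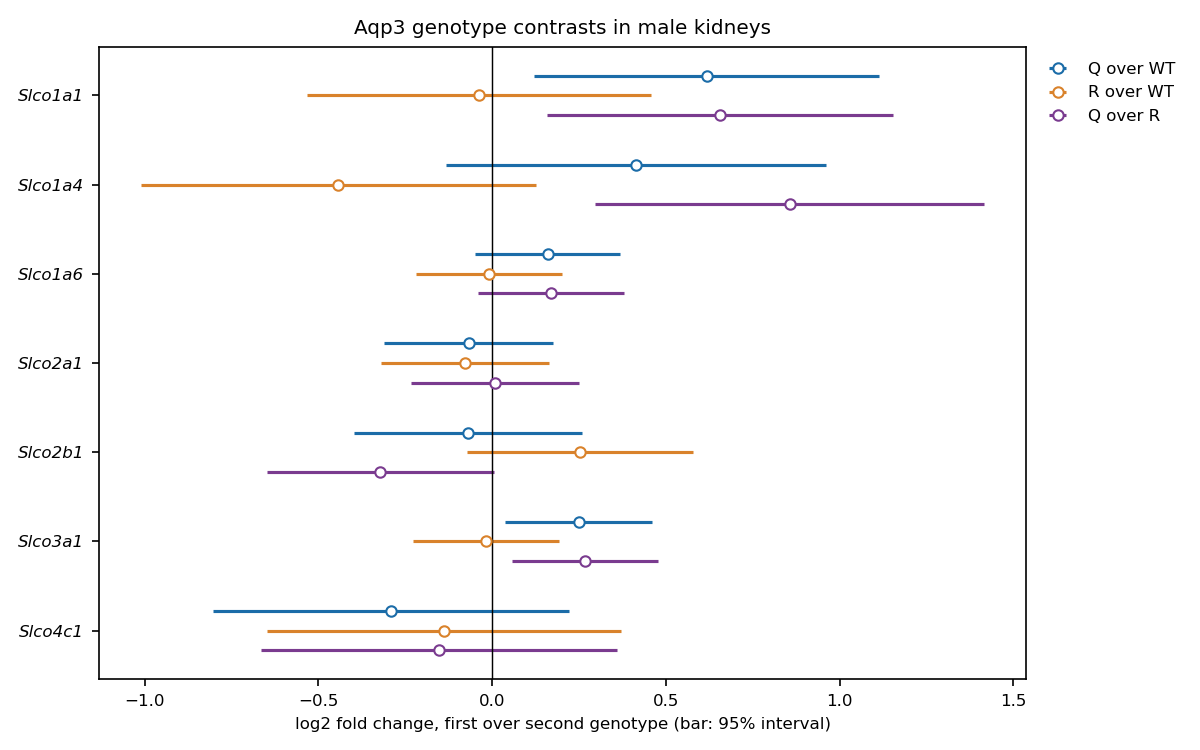
Log2 fold change between Aqp3 genotypes in male kidneys (5 libraries each) for each Slco gene, with 95% intervals from the edgeR fit; open points mark that no gene was called. The intervals of Slco1a1 and Slco3a1 lie above 0 for Q over WT and for Q over R, and that of Slco1a4 for Q over R.

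Other organic anion carriers of the tubule were also divided by sex, but in both directions. Of 19 tested genes, 6 were higher and 6 lower in male WT than in female WT kidneys, with a median log2 fold change of -0.22, against -0.03 over all tested genes. Slc22a6 (Oat1), the basolateral uptake carrier for organic anions, was at 1068 ± 77.2 CPM in male WT against 393 ± 88.0 CPM in female WT kidneys (SD, n = 5 each; log2 1.44, adjusted p = 3.99e-08 by edgeR). Slc22a12 (Urat1), the urate exchanger of the brush border, was higher in males (1.09, adjusted p = 8.04e-09), as was the phosphate and urate carrier Slc17a1 (0.97, adjusted p = 7.11e-09). Abcc3 (Mrp3), an efflux pump for glucuronides, was at 2.80 ± 0.9749 CPM in male WT against 90.0 ± 45.2 CPM in female WT kidneys (-5.00, adjusted p = 6.04e-13). In Q kidneys 7 rose and 7 fell in males against females, and in R kidneys 5 and 7.

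Among 6 tested PDZ scaffold genes, whose products anchor transporters at the brush border, 2 were higher in male WT kidneys, Slc9a3r1 (0.40, adjusted p = 0.00079) and Pdzd3 (0.37, adjusted p = 0.0382), and none was lower. In Q and in R kidneys 1 was higher and none lower. In WT kidneys 1 was higher without female WT replicate 2. Pdzk1, the scaffold that binds Oatp1a1 in mouse, was at 906 ± 46.1 CPM in male WT against 850.5 ± 109 CPM in female WT kidneys (0.09, adjusted p = 0.653).

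Of the called genes that make, take up and break down prostaglandins, more were lower than higher in males, and Slco2a1 was lower too. Of 15 tested, 1 was higher and 5 lower in male WT kidneys (median -0.29), and 9 were not called. Over all tested genes, 8.22% were higher and 8.31% lower. Without female WT replicate 2, 1 was higher and 4 lower. Hpgd, the dehydrogenase that inactivates prostaglandins once they have been taken up, was at 17.4 ± 2.98 CPM in male WT against 36.3 ± 1.34 CPM in female WT kidneys (-1.06, adjusted p = 7.71e-07). The carbonyl reductase Cbr1 was at 49.0 ± 7.95 against 435 ± 44.5 CPM (-3.15, adjusted p = 2.32e-17), and Ptgs1 (cyclooxygenase-1) differed by -0.46 (adjusted p = 0.00596). Ptgr1, a reductase of prostaglandin breakdown products, was higher in males (0.94, adjusted p = 4.03e-05). In Q kidneys 1 was higher and 6 lower, and in R kidneys 2 and 4. Hpgd was also lower in males in Q (-1.26, adjusted p = 2.38e-08) and R kidneys (-1.13, adjusted p = 2.35e-06).

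Thyroid hormone genes were split, with 2 of 9 higher and 2 lower in male WT kidneys (median 0.01), 2 and 3 in Q and 1 and 3 in R kidneys. The deiodinase Dio1 was lower (-1.84, adjusted p = 1.45e-06), as was the amino acid and thyroid hormone carrier Slc7a8 (-0.58, adjusted p = 0.00265). Ttr, transthyretin, was higher (1.71, adjusted p = 0.000503).

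Of 11 tested genes listed for steroid sulfate and glucuronide handling, 6 were higher and 2 lower in male WT kidneys, with a median of 0.46. Whether each listed gene handles steroid sulfates or glucuronides was not tested, and this holds for Ugt8a, Hsd17b11 and Hsd11b1 below. The counts describe the list only. In Q kidneys 5 were higher and 5 lower (median 0.28), and in R kidneys 5 and 3 (median 0.29). Ugt2b38, a glucuronosyltransferase, was at 802 ± 178 CPM in male WT against 68.0 ± 10.6 CPM in female WT kidneys (3.56, adjusted p = 2.64e-14). Ugt8a (3.37, adjusted p = 2.95e-16), Hsd17b11 (1.62, adjusted p = 1.65e-08) and Hsd11b1, which regenerates active glucocorticoid (1.42, adjusted p = 6.28e-08), were also higher in males. Without female WT replicate 2, 5 were higher and 2 lower.

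Of 21 regulators of transporter genes, 5 were higher and 4 lower in male WT kidneys, and 4 and 3 without female WT replicate 2. In Q kidneys 6 were higher and 5 lower, and in R kidneys 2 and 3. The prolactin receptor Prlr was at 22.2 ± 12.4 CPM in male WT against 215 ± 30.7 CPM in female WT kidneys (-3.28, adjusted p = 6.1e-06), and the xenobiotic receptor Nr1i2 was lower (-0.93, adjusted p = 3.16e-05). Esr1, an estrogen receptor, was higher in males (0.995, adjusted p = 0.000665), as was Nr1h4, the bile acid receptor (0.78, adjusted p = 0.00306). None of the genes of these lists was called in a genotype contrast.

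**Figure D5:**
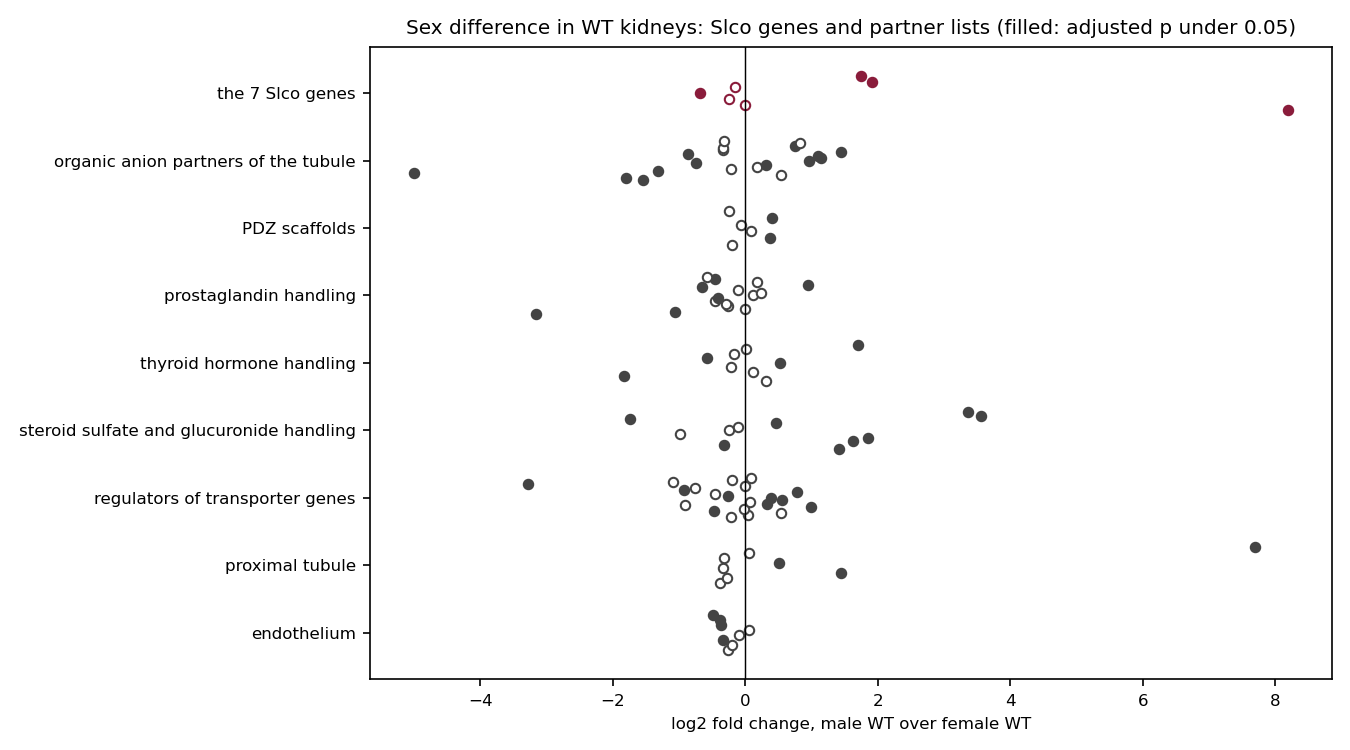
Log2 fold change of male WT over female WT kidneys for the 7 Slco genes (top, red) and for every tested gene of the partner and marker lists, filled where the adjusted p was under 0.05. Organic anion partners lie on both sides of 0, from -5.00 for Abcc3 to 1.44 for Slc22a6, and the called prostaglandin genes lie below 0 except Ptgr1.

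Proximal tubule markers were examined beside the male-high members. Of 8 tested, 3 were higher in male WT kidneys, Slc7a13 (7.69), Slc22a6 (1.44) and Slc34a1 (0.50), and none was lower. In Q kidneys 3 were higher and 1 lower, and in R kidneys 3 were higher and 3 lower (median -0.33, against -0.03 over all tested genes). Lrp2 (-0.27), Cubn (-0.38), Slc5a2 (0.06), Slc5a12 (-0.32) and Slc22a7 (-0.34) were not called in WT kidneys. The median of the 8 in WT kidneys was -0.10, and 4 of 8 were positive. The sum of the 8, which includes the 3 called genes, was 10866 to 11988 CPM in male WT against 7122 to 8717 CPM in female WT kidneys. Its part in the Slco differences was not tested.

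Within groups, some genes varied from library to library together with a member. Likeness was Pearson's r of the deviations of log2 CPM from the group means over all 28 libraries, so that sex and genotype differences do not enter. The search covered 12941 genes with a symbol and a mean of at least 1 CPM. Genes with Gm or Rik names, pseudogenes, Xist and 4 Y-linked genes were left out, so Gm30784 and Gm6614 could not appear. For each member the 3 most similar of the searched genes are given. For Slco1a1 they were Amacr (r = 0.82), Asb11 (0.76) and Slc7a13 (0.71), an amino acid carrier of the late proximal tubule. For Slco3a1 they were Slc22a6 (0.86), Ldhd (0.82) and Slc9a2 (0.81), and for Slco4c1 Uggt2 (0.76), Ric3 (0.75) and Adamts16 (0.75). For Slco1a6 they were Atad5 (0.73), Tmem229b (0.71) and Acox2 (0.69), and for Slco1a4 Srd5a1 (0.75), Txnrd3 (0.71) and Mrnip (0.71). For Slco2a1 they were Lmln (0.79), Prr14l (0.74) and Hinfp (0.74), and for Slco2b1 Apob (0.77), Lrp1 (0.73) and Cplane1 (0.72). The libraries share depth and tissue make-up, and the highest of many correlations is by construction high, so these are descriptions. Counting noise also enters the deviations of Slco1a4, with 18 to 70 fragments per library, and of Slco1a1 in females, with 15 to 47. Without male Q replicate 4 and female Q replicate 5, the 3 values for Slco4c1 were 0.68, 0.69 and 0.70, and that of Slc22a6 with Slco3a1 was 0.85.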

How the data were processed

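The deposited table gives raw counts per gene for polyadenylated RNA of 28 kidney libraries. Per the file headers, the authors counted fragments over exons with featureCounts 2.0.1 against Ensembl release 107 of GRCm39, with no option for strand, multi-mapping reads or overlapping genes. The submitters' processing notes also name Trim Galore 0.6.7, SAMtools 1.6 and DESeq2 1.38.3. The aligner is not given in the sources used here.

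Differences were fitted with edgeR 4.0.16 under R 4.3.3 (TMM scaling, filterByExpr on the 6 groups, robust quasi-likelihood fit with a mean per group, 22 residual degrees of freedom, common coefficient of biological variation 0.176). The 17573 genes kept held 99.91% of counts, and 52073 of 56748 IDs had a symbol. The 15 contrasts were sex within genotype, genotype within and across sexes, and their interactions. The alternatives were DESeq2 1.42.0, limma 3.58.1 voom with quality weights, other scaling, no filter, a replicate block and leaving out libraries. The fit was tested on simulated data. No columns of the count table were identical, and no replicate pair agreed within sampling noise (lowest chi-square per degree of freedom 6.17).

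The members and lists were chosen with earlier results of these data known, so none is independent evidence. All 7 members were described in every contrast, and of each list up to 4 genes with the smallest p in male against female WT kidneys, plus Pdzk1, chosen after its values were seen; some listed genes enter the counts but are not reported here by name; for the genotype contrasts, where no list gene was called, the lists are given by that count alone. Lists covered organic anion partners, PDZ scaffolds, prostaglandin, thyroid hormone and steroid genes, regulators, and markers of proximal tubule, endothelium, thick ascending limb, distal convoluted tubule, collecting duct, podocyte, hepatocyte, adipocyte, macrophage and erythroid cells. Exon lengths, open reading frames and shared 50-base stretches came from GENCODE M21, and promoters from RefSeq (GRCm38.p6), with Biopython 1.88; no coordinates were moved between builds.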

Additional observations from a re-analysis of the deposited data

Results flagged for a closer look

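Slco1a6 in female WT replicate 2 was at 404 CPM (403.7), far from the other 4 female WT libraries, which lay between 301 and 310 CPM. The gap to its nearest neighbour was 0.907 of the group's whole range, above Dixon's critical value of 0.71 for 5 samples. It was the only flag among 35 checks of 7 genes in 5 groups, and chance flags about 1 in 20. This is also the library with 0.515 CPM of Xist, and the part of that in the Slco1a6 value was not tested.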

How the results depend on the processing

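The number of Slco genes called kept within 1.5 times of its value under all 286 alternatives to the 15 counts: DESeq2 size factors, the DESeq2 Wald test, voom, no filter, a replicate block, each library left out, and male Q replicate 4 and female Q replicate 5 left out together. Over these settings the genotype contrasts called 0 to 3 of all genes. In the sex contrasts and the male genotype contrasts, 626 of 658 alternative values of single genes kept their direction and side of the threshold and 32 reversed, none of a called result. The cause was not tested. For male over female WT, Slco1a4 turned to 0.0037 with DESeq2 size factors, 0.0033 with the Wald test and 0.0039 without both libraries. For male over female Q, Slco1a6 was 0.029 with voom, and for R over WT in males 0.0086. For Q over R in males, Slco2a1 was -0.0018 with no filter and Slco4c1 0.014 without both libraries. Leaving out each library gave ranges that crossed 0: -0.27 to 0.15 for Slco1a4 in WT, -0.0065 to 0.33 for Slco1a4 and -0.082 to 0.051 for Slco1a6 in Q, -0.17 to 0.059 for Slco2b1 (Q over WT, males), -0.30 to 0.074 for Slco1a1, -0.053 to 0.034 for Slco1a6 and -0.070 to 0.030 for Slco3a1 (R over WT, males), and -0.058 to 0.11 for Slco2a1 and -0.26 to 0.01 for Slco4c1 (Q over R, males). Without female WT replicate 2, 2359 genes were called between the sexes in WT kidneys, against 2906.

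Same-numbered libraries showed little common deviation (correlations -0.29 to 0.21, median 0.0057, over 0.1 in 5 of 65 pairs). Pairs or batches that do not follow these numbers were not tested. With the replicate block, 4 members were called in each sex contrast and 0 in each genotype contrast; Slco3a1 in WT kidneys was then 1.91 and Slco4c1 1.81.

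Depth limits Slco1a4 and female Slco1a1, with at most 70 fragments per library. Female R kidneys have 3 libraries.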

Other observations

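The table held 8 further Slco genes. Slco4a1 was the only other Slco gene tested, and was lower in male WT kidneys, with 13.4 ± 4.23 CPM against 26.9 ± 8.46 CPM in female WT kidneys (SD, n = 5 each; log2 -1.001, adjusted p = 0.00419 by edgeR), and was still called lower without female WT replicate 2. It gave -0.29 in Q (adjusted p = 0.443 by edgeR) and -0.42 in R kidneys (adjusted p = 0.348). The difference between genotypes was not called. For Q over WT, Slco4a1 gave -0.90 in females and -0.54 over both sexes. For Q over R over both sexes it gave -0.40, and the interaction of sex with Q against WT was 0.71. Each had an unadjusted p under 0.05 by edgeR, and none was called. Slco4a1 fold changes without female WT replicate 2 are not reported here. Slco1a5, Slco1b2, Slco1c1, Slco5a1 and Slco6d1 had 4, 37, 18, 52 and 6 fragments in all libraries together, and Slco6b1 and Slco6c1 had 0.

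Around Slco1a1 on chromosome 6, 3 further transcripts were higher in male WT than in female WT kidneys by edgeR. These were the long noncoding Gm30784 (log2 1.20, adjusted p = 0.00911), the protein-coding Gm6614 (2.26, adjusted p = 8.68e-05) and the pseudogene Gm18159 (3.34, adjusted p = 7.02e-05), with 1188, 605 and 233 fragments in all libraries together. Gm6614 has an open reading frame of 2013 bases that shares 85.3% of aligned bases with Slco1a1, and 4.45% of its 50-base stretches occur in another transcript, Slco1a6. Gm30784 and Gm18159 share none. Slco1a6, between Gm6614 and Gm18159, was not called.

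Markers of other cells differed by sex in WT kidneys as follows. The counts of tested genes that were higher and lower in males were 0 and 0 of 2 for thick ascending limb, 0 and 0 of 1 for distal convoluted tubule, 0 and 1 of 2 for collecting duct, 0 and 2 of 2 for podocytes, 3 and 2 of 5 for hepatocytes, 0 and 0 of 4 for adipocytes, 0 and 1 of 4 for macrophages and 0 and 0 of 3 for erythroid cells. Without female WT replicate 2 they were 0 and 1 for podocytes, 2 and 2 for hepatocytes and 0 and 0 for macrophages, and the same for the rest. In Q kidneys 2 of 2 thick ascending limb markers, 1 of 1 distal convoluted tubule marker, 1 of 2 collecting duct markers and 2 of 2 podocyte markers were lower in males and none of these was higher, and R kidneys gave the same counts. Hepatocyte markers gave 2 higher and 2 lower of 5 in Q and 3 and 2 in R kidneys, macrophage markers 0 and 0 of 4 in Q and 0 and 1 in R kidneys, and adipocyte and erythroid markers 0 and 0 in both. The part of these markers in the Slco differences was not tested. Among the hepatocyte markers Cyp2e1 was higher in males (4.30, adjusted p = 4.88e-17) and Alb was lower (-1.17, adjusted p = 0.00247).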
